A study of Mus musculus with 8 samples.

Results

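Immediate early response genes are the genes that a cell transcribes first after a stimulus, and 35 of them, named as a list of gene symbols, were followed in stellate cells of the mouse liver, which are pericytes that line the sinusoids and store vitamin A. Each of the 35 symbols had a probe set that the platform annotation maps to it alone, out of 19938 genes named in this way on a whole-transcript Affymetrix array. For Socs3, which had 2 such probe sets, that with the higher mean was used. All cells came from male Balb/c mice, were enriched by density centrifugation, sorted by the autofluorescence of their retinoids and lysed directly after sorting. The quiescent group (4 arrays) came from normal mice. The reverted group (4 arrays) came from mice that were given CCl4, a liver toxin used to provoke fibrosis, in 4 injections (2 each week, 0.5 µl for each g of body weight) and were then left untreated for 45 days. A general statement in the labels gives the age as 18 weeks for both groups, while the statement on the reverted group gives 16 weeks. Whether mice were pooled for an array is not stated, so p-values cover no more than the differences among these samples, and these may be technical. The question asked of these genes was whether their levels differ between stellate cells that had passed through injury and its resolution and cells that had not, and how far single arrays differ within a group.

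These genes need no new protein for their induction. Kinases of the ERK, JNK and p38 cascades act on factors already present, among them SRF with its ELK partners, CREB and ATF2, and transcription starts within minutes and ends soon after, because many of the products are phosphatases, repressors or mRNA decay proteins that close the loop. In the liver this programme is known from regeneration, from injury and from the isolation of cells by digestion and sorting. In stellate cells AP-1 and KLF6 are known from work on their activation.

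Values are deposited log2 values after RMA, and a log2 change is reverted minus quiescent. Medians of the 8 arrays over all probe sets lay between 7.66 and 7.74, and correlations between arrays across genes ran from 0.9952 to 0.9987. Of the stellate markers, Lrat, which makes retinyl esters, lay between 13.99 and 14.16 and the intermediate filament gene Des between 12.73 and 12.91 on the 8 arrays. All 13 stellate markers measured had a lower mean in reverted cells (median log2 change -0.05). The groups did not overlap in 3 of them (23.1%, against 4.09% of all genes lower in this way). Many of the markers lie near the top of the scale. Among the 200 genes above the 99th percentile of level, 117 had a lower mean and 9% did not overlap in this direction. Of the 3 markers without overlap Colec11 lay at percentile 99.8 of level, Ngfr at 98.4 and Gfap at 62.3. The part of position on the scale in the lower means was not tested. The mean level of the stellate markers per array was 13.14 to 13.23 in quiescent and 13.05 to 13.11 in reverted cells. Of these 0 rose and 1 fell, the intermediate filament gene Gfap (-0.49, adjusted p = 0.0182), whose call was lost when the mean of hepatocyte markers was added to the fit (the hepatocyte covariate, 0.105), with the replicate number as a block (the replicate block, 0.0867) and without reverted array 4 (0.0703). The array weights were lowest for quiescent array 4 (0.584).

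None of the 35 immediate early genes passed the test between reverted and quiescent cells. The count was 0 rises and 0 falls at an adjusted p under 0.05 in limma, against 0.712% of all genes called (0.527% as rises and 0.186% as falls). At an unadjusted p under 0.05 there were 6 members, all with the higher mean in reverted cells, or 17.1% of the list. Over all genes that share was 16.0% (8.56% higher and 7.40% lower in reverted cells). The count of both directions together thus lay near the background. In the higher direction alone the 17.1% stands beside 8.56% of all genes and 604 of the 4985 genes in the upper 25% by level. In the lower direction 0 members stand beside 7.40% of all genes. The groups did not overlap in 3 members, Gadd45g, Myc and Klf6, each with all reverted arrays above all quiescent ones. That is 8.57% of the list, against 4.64% of all genes and 7.24% of the genes in the upper 25% by level. Separation in the other direction occurred in 0 members, against 4.09% of all genes. The mean was higher in reverted cells for 25 members and lower for 10, and the median log2 change was 0.07 against -0.01 over all genes. Among the genes in the upper 25% by level, where 32 of the 35 members lie, the share with a higher mean was 63.8%, against 71.4% of the members. Leaving out each array gave 19 to 30 members with a higher mean. It was 19 (54.3%, median 0.01) without quiescent array 3, below the 63.3% (median 0.03) of the upper 25% by level in that fit. It was 30 (85.7%) without quiescent array 4 (median 0.09) and without reverted array 2 (median 0.10), against 67.5% and 62.6% of the upper 25%. The share was 74.3% after quantile normalization (50.8% in the upper 25%), 85.7% after centring each array on its median (72.5%) and 94.3% (33 of 35) with the hepatocyte covariate (68.3%).

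The 95% confidence interval of the difference lay inside a 1.5-fold change either way in 29 of the 35 members. The same held for 19335 of all 19938 genes and for 4830 of the 4985 genes in the upper 25% by level. Both are larger shares than that of the members. The mean difference itself exceeded 1.5-fold in 1 member, Myc, and in 121 of all genes. Many of the members' intervals come from probe sets near the top of the scale. Of the members, 25 lay above the 90th percentile of mean level over all genes and 10 above the 99th, where an array signal may be compressed and a difference understated.

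**Figure D1:**
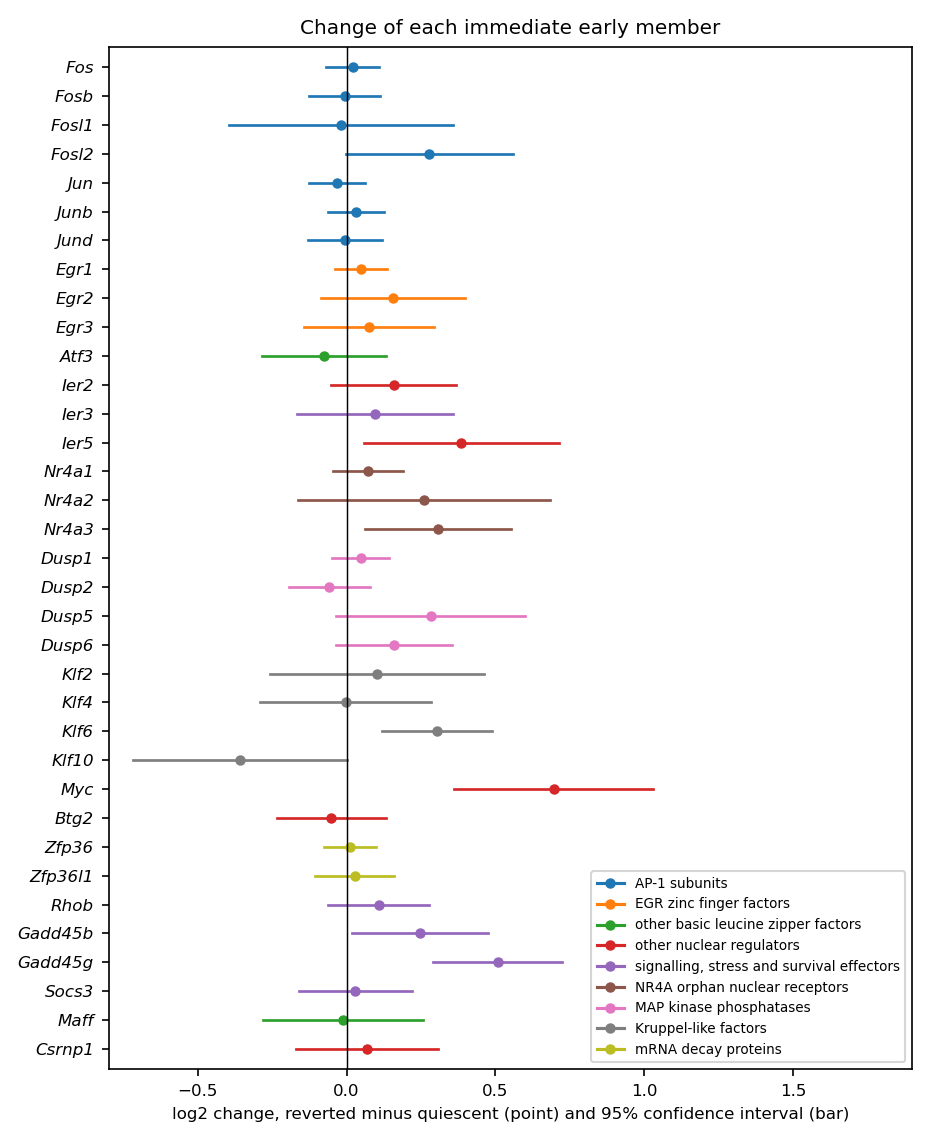
Log2 change of each of the 35 members (horizontal axis, reverted minus quiescent; point) with its 95% confidence interval from limma (bar), coloured by role. Most intervals span 0, and those of Myc, Gadd45g and Klf6 lie farthest above it.

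The AP-1 subunits, the FOS and JUN proteins that pair through leucine zippers to bind AP-1 sites, had 0 rises and 0 falls among 7 members, with 3 higher and 4 lower means. Fos stood at 13.49 ± 0.04 (SD, n = 4) in quiescent and 13.51 ± 0.04 (SD, n = 4) in reverted cells, a log2 change of 0.02 (95% confidence interval -0.07 to 0.11, adjusted p = 0.816). The log2 changes of Fosb (-0.01), Jun (-0.03), Junb (0.03) and Jund (-0.01) were as small, with adjusted p from 0.722 to 0.971. Each of these 5 subunits had a pooled SD within groups of at most 0.08. Fosl2, which encodes the FOS relative FRA2, read 12.49, 12.68, 12.01 and 12.52 on quiescent arrays 1 to 4 and 12.64, 12.80, 12.66 and 12.71 on reverted arrays 1 to 4. Quiescent array 3 was low and the groups overlapped, and the log2 change was 0.28 (SE 0.12, adjusted p = 0.316). Fosl1, which encodes FRA1, read 8.75, 8.60, 8.56 and 9.19 in quiescent and 8.67, 8.39, 9.06 and 8.91 in reverted cells. Quiescent array 4 and reverted array 3 were high in their groups, the means were 8.78 and 8.76, and the SD within each group (0.29 in both) was among the widest of the list.

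The means of the other leucine zipper factors differed by less than their spread. Atf3, a stress-induced repressor, had a log2 change of -0.08 (adjusted p = 0.696), and Maff, a small MAF protein without an activation domain, had -0.01 (adjusted p = 0.969). For Atf3 the quiescent arrays ranged over 0.38 and the reverted arrays over 0.18.

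The EGR zinc finger factors, which bind GC-rich sites in promoters, had 3 higher means and 0 calls. Egr1 stood at 13.85 ± 0.04 in quiescent and 13.90 ± 0.04 (SD, n = 4) in reverted cells (log2 change 0.05, adjusted p = 0.551), with the smallest pooled SD of the list (0.04). The log2 changes were 0.16 for Egr2 (adjusted p = 0.487) and 0.07 for Egr3 (adjusted p = 0.718). Egr2 spread over 0.51 in quiescent and 0.24 in reverted arrays.

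The NR4A orphan nuclear receptors act without a known ligand and are controlled by their level. All 3 had a higher mean in reverted cells and 0 passed the test. Nr4a3 read 12.08, 12.23, 11.76 and 12.15 in quiescent and 12.45, 12.12, 12.42 and 12.44 in reverted cells. Reverted array 2 lay among the quiescent values, and the log2 change was 0.31 (SE 0.11, adjusted p = 0.232). Nr4a2 read 10.10, 10.62, 9.60 and 10.48 in quiescent and 10.57, 10.40, 10.48 and 10.38 in reverted cells. Its quiescent arrays spanned 1.02 on the log2 scale, with array 3 lowest, while its reverted arrays spanned 0.19. The pooled SD of 0.33 was the largest of the list, and the log2 change of 0.26 (SE 0.19, adjusted p = 0.507) was smaller than it. Nr4a1 had a log2 change of 0.07 (adjusted p = 0.514).

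Among the other nuclear regulators, Myc, the bHLH factor that drives growth and ribosome synthesis, showed the largest difference of the list. It read 11.61, 11.35, 11.30 and 12.08 on the quiescent arrays and 12.25, 12.21, 12.27 and 12.38 on the reverted arrays. All reverted arrays lay above all quiescent ones, and quiescent array 4 lay apart from its group near the reverted values. The log2 change was 0.70 (SE 0.15), or 1.62-fold, and did not pass (adjusted p = 0.082). Without quiescent array 4 the change was 0.86 with an adjusted p = 0.00424, and without any other array the adjusted p lay between 0.115 and 0.232. Ier5, which encodes a regulator of heat shock factor 1, read 10.37, 10.09, 9.92 and 10.52 in quiescent and 10.49, 10.35, 10.84 and 10.75 in reverted cells. The groups overlapped, and the log2 change was 0.38 (SE 0.15, adjusted p = 0.253). Ier2 (0.16, adjusted p = 0.424), the antiproliferative gene Btg2 (-0.05, adjusted p = 0.775) and the nuclear factor gene Csrnp1 (0.07, adjusted p = 0.766) had pooled SDs within groups of 0.15, 0.13 and 0.18, and their groups overlapped.

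The Krüppel-like zinc finger factors were divided, with 2 higher and 2 lower means and 0 calls. Klf6 read 11.87, 11.58, 11.75 and 11.97 in quiescent and 12.02, 12.09, 12.06 and 12.23 in reverted cells. The groups did not overlap, though the gap between the highest quiescent and the lowest reverted array was small, and the log2 change of 0.30 (SE 0.08) did not pass (adjusted p = 0.141). Klf10, a factor induced by TGF-beta, was the member with the largest lower mean. It read 10.51, 10.68, 10.89 and 10.76 in quiescent and 10.05, 10.07, 10.79 and 10.51 in reverted cells. Reverted arrays 1 and 2 lay below the quiescent range, reverted array 4 at its lower edge and reverted array 3 within it (log2 change -0.36, SE 0.16, adjusted p = 0.316). Klf2, known from endothelium under flow, read 12.41, 12.01, 11.74 and 12.36 in quiescent and 12.19, 12.00, 12.18 and 12.55 in reverted cells. Klf4 read 12.34, 12.16, 11.84 and 12.48 in quiescent and 12.22, 12.03, 12.20 and 12.36 in reverted cells. For Klf2 and Klf4 quiescent array 3 was the lowest of all 8 arrays, and the log2 changes of 0.10 and 0.00 lay within the spread (adjusted p = 0.771 and 0.992).

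The dual-specificity phosphatases, which switch MAP kinases off, had 3 higher and 1 lower mean and 0 calls. Dusp5, specific for nuclear ERK, read 11.91, 12.40, 11.60 and 11.85 in quiescent and 12.19, 12.29, 12.15 and 12.25 in reverted cells. Quiescent array 2 lay above every reverted array and quiescent arrays 1, 3 and 4 below every one. The log2 change was 0.28 (SE 0.14, adjusted p = 0.357). Dusp6, a cytoplasmic ERK phosphatase, read 12.85, 12.88, 12.99 and 12.61 in quiescent and 13.11, 12.84, 13.05 and 12.97 in reverted cells. For Dusp6 quiescent array 4 was the lowest and array 3 the highest of its group, while array 4 exceeded array 3 in 32 of the 35 members. The log2 change of Dusp6 was 0.16 (SE 0.09, adjusted p = 0.387). Fitted with the mean of the hepatocyte markers as a covariate, it was 0.01. Dusp1, at the top of the scale with 14.25 ± 0.06 and 14.30 ± 0.03 (SD, n = 4), and Dusp2, the only member below the middle of the scale with 7.08 ± 0.10 and 7.02 ± 0.08, had log2 changes of 0.05 and -0.06 (adjusted p = 0.589 and 0.649).

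The mRNA decay genes Zfp36 and Zfp36l1, whose zinc finger proteins bind AU-rich transcripts, had log2 changes of 0.01 (adjusted p = 0.902) and 0.03 (adjusted p = 0.839). For Zfp36 the 95% confidence interval corresponded to 0.948-fold to 1.07-fold.

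All 5 members that act in signalling, stress or survival had a higher mean in reverted cells, and 0 passed the test. Gadd45g, which encodes a stress sensor that binds the kinase MEKK4, read 10.64, 10.53, 10.65 and 10.87 in quiescent and 11.03, 11.12, 11.43 and 11.13 in reverted cells. The groups did not overlap, and the log2 change of 0.51 (SE 0.10), or 1.42-fold, had the smallest p of the list and lay just short of the threshold (adjusted p = 0.054). It passed without quiescent array 4 (0.0346), and without any other array the adjusted p lay between 0.0583 and 0.152. Its relative Gadd45b read 12.62, 12.40, 12.41 and 12.76 in quiescent and 12.74, 12.59, 12.98 and 12.86 in reverted cells. The groups overlapped (log2 change 0.25, SE 0.10, adjusted p = 0.284). The endosomal GTPase gene Rhob (0.11, adjusted p = 0.494), the survival gene Ier3 (0.09, adjusted p = 0.701) and the cytokine signalling inhibitor Socs3 (0.03, adjusted p = 0.883) had smaller differences. Both probe sets of Socs3 gave similar differences, 0.03 for the one used and 0.06 for the other.

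**Figure D2:**
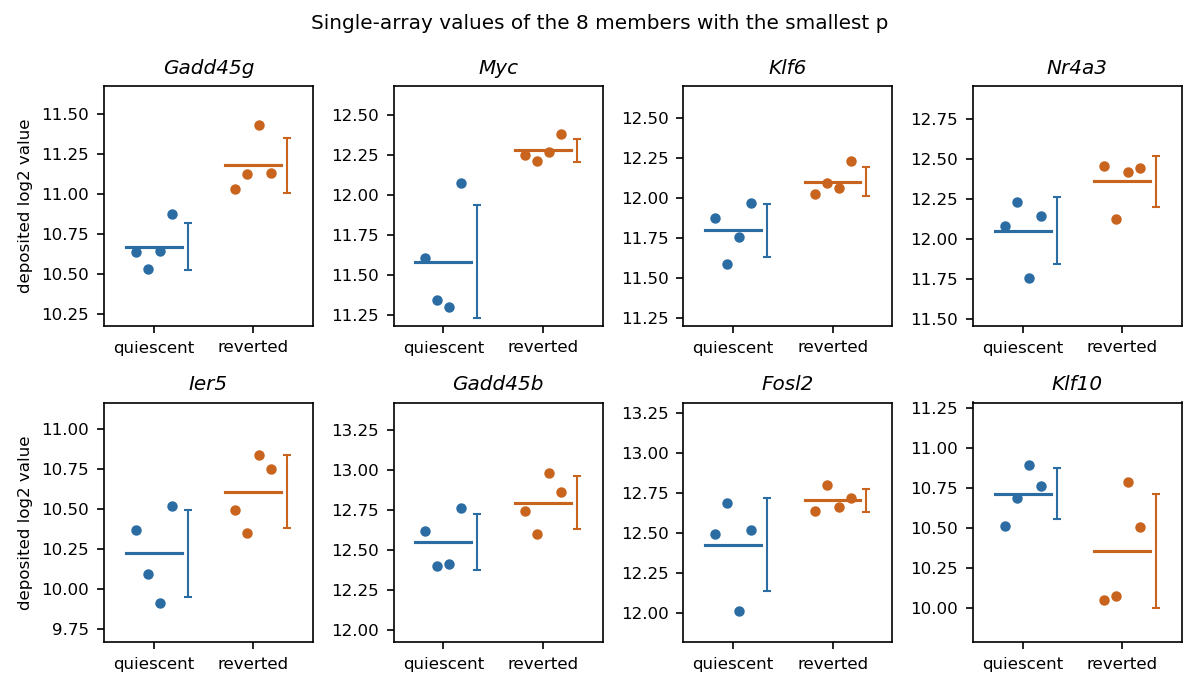
Deposited log2 values (vertical axis, each panel spanning 1.5 units) of the 8 members with the smallest p, with a point for each array, a horizontal line at the group mean and a bar of ± 1 SD (n = 4). In Gadd45g, Myc and Klf6 the groups do not overlap, and quiescent array 4 (rightmost quiescent point) is the highest of its group in all 3.

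Of 18 measured hepatocyte markers 0 rose and 1 (Trf) fell, and the other 17 had a higher mean in reverted cells. Their median log2 change was 0.42, against -0.01 over all genes. At an unadjusted p under 0.05 in limma 10 were higher and 1 lower, or 61.1% of the list against 16.0% of all genes. The groups did not overlap in 3 that were higher (16.7%, against 4.64% of all genes) and 1 that was lower (5.56%, against 4.09%). Their mean level per array was 8.51, 9.16, 8.83 and 8.30 on quiescent arrays 1 to 4 and 8.89 to 9.37 in reverted cells. The groups overlapped through quiescent array 2 alone. Trf was called in 7 of the 18 alternatives and in 1 of the 8 fits that left out an array, with adjusted p up to 0.144. Quiescent array 4 had the lowest mean of this list, and its albumin transcript Alb was at 10.84, against 11.88 to 12.64 on the other 7 arrays. With this mean as a covariate the log2 changes of Myc, Gadd45g and Klf6 were 0.96, 0.65 and 0.46, each larger than without it, with adjusted p of 0.0538, 0.0641 and 0.0601. In bulk samples such as these, more cells of a type and more RNA per cell cannot be told apart. Among markers of other cells, 0 of 15 Kupffer and myeloid, 0 of 12 sinusoidal endothelial and 0 of 11 lymphocyte genes were called, and 2 of 12 mesothelial and portal fibroblast genes rose, Wt1 (1.39, adjusted p = 0.00801) and Dpt (1.69, adjusted p = 0.0174). Wt1 lost its call with the hepatocyte covariate (0.0641) and the replicate block (0.0554), and Dpt with both (0.101 and 0.0746) and without reverted array 3 (0.0514) or 4 (0.0703). Of the 12 genes 9 had the lower mean in reverted cells and 3 the higher (median log2 change -0.07), while the mean level of the list was 7.68 to 7.75 on the quiescent and 7.86 to 8.07 on the reverted arrays. In this list all reverted arrays were higher in 3 genes (25%, against 4.64% of all genes), Wt1, Dpt and Cd34 (0.60, adjusted p = 0.0631). The same held for 1 Kupffer and myeloid gene (6.67%), Lyz2 (0.59, adjusted p = 0.129), and for 0 lymphocyte genes. Of the sinusoidal endothelial markers 10 of 12 had a higher mean in reverted cells (median 0.22). The groups did not overlap in 1 of them (8.33%), Clec4g (0.50, adjusted p = 0.063). The mean level of the endothelial list was 8.23 to 8.74 in quiescent and 8.43 to 9.05 in reverted cells. The part of these cells in the differences of the immediate early genes was not tested beyond the hepatocyte covariate.

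Within the groups the immediate early genes moved together from array to array. Quiescent array 3 was below its group mean in 32 of 35 members, against 47.2% of all genes and 45.6% of the genes in the upper 25% by level. It was the lowest quiescent array in 26 members, while it was the lowest in 20.4% of all genes. The median deviation of the members on this array was -0.14, and 0.00 over all genes. The exceptions above the group mean were Klf10, Dusp6 and Dusp2. Quiescent array 4 was above its group mean in 29 of 35 members and the highest in 16. As deposited, this array was above the mean in 51.1% of all genes but in 74.5% of those in the upper 25% by level, so that many genes in that range shared its high position. Quiescent array 1 was above its group mean in 28 members, against 46.6% of all genes and 35.8% of the upper 25%. In 32 members quiescent array 4 exceeded quiescent array 3, by a median of 0.27, and in 31 members array 1 did, by a median of 0.22. The mean of the 35 log2 values was 11.86 on quiescent array 3, 12.01 on array 2, 12.08 on array 1 and 12.15 on array 4.

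The reverted arrays lay closer together. Reverted array 2 was below its group mean in 28 of 35 members (56.3% of all genes) and the lowest in 17, and reverted array 4 was above the mean in 28 (50.5% of all genes). After quantile normalization and after median centring, reverted array 2 was below the mean in 30 and 32 members, but also in 67.5% and 78.5% of all genes. Means of the 35 values ran from 12.04 to 12.19 over these arrays, inside which the values of quiescent arrays 1 and 4 also fell. Quiescent array 4 was the highest of its group in 16 members (27.8% of all genes) and reverted array 3 in 11 (19.1%). Fosl1, Jund, Ier3, Ier5, Gadd45b, Gadd45g, Maff and Csrnp1, singled out after their values were seen, were highest on both. Whether they share more than this was not tested. Quiescent array 3 was below its group mean in 32 of 35 members after quantile normalization and in 32 after centring each array on its median. Quiescent array 4 was above it in 29 (44.8% of all genes) and 31 (59.6%). Marker lists moved by array too. Hepatocyte markers were below the group mean in 17 of 18 on quiescent array 1 and 18 on array 4. They were above it in 18 on quiescent array 2 and 14 on array 3. Sinusoidal endothelial markers were above it in 12 of 12 on reverted array 4. The part of these cells in the movement of the members was not tested.

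**Figure D3:**
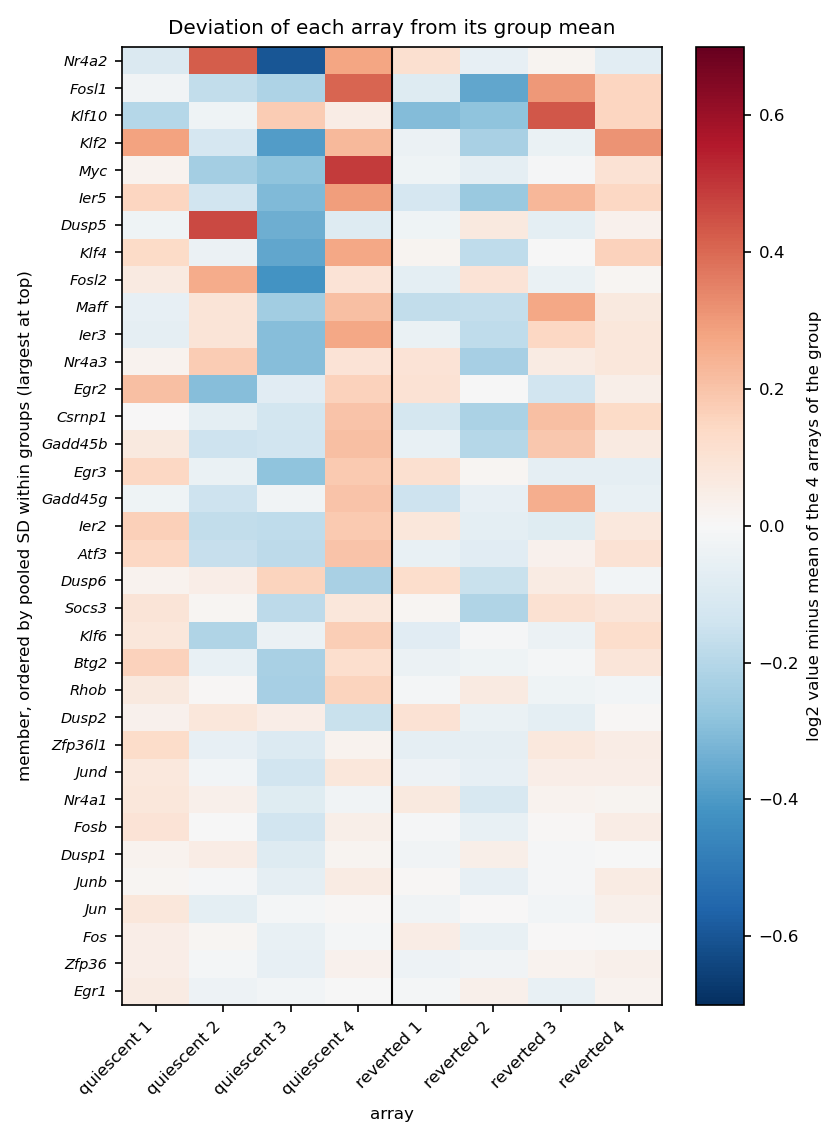
Deviation of each array (columns) from the mean of the 4 arrays of its group (colour, log2 units) for the 35 members (rows), ordered by pooled SD within groups. Quiescent array 3 is blue, below its mean, in 32 of 35 rows, and quiescent array 4 is red in 29.

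The spread between arrays of a group was wider for these genes than for most genes on the array. The median pooled SD was 0.15 for the members, 0.08 for all genes and 0.07 for the genes in the upper 25% by level. It exceeded the 75th percentile of all genes in 24 of 35 members and the 90th percentile in 16. The widest were Nr4a2 (0.33), Fosl1 (0.29), Klf10 (0.28), Klf2 (0.28), Myc (0.26), Ier5 (0.25), Dusp5 (0.24) and Klf4 (0.22). The 10 members above the 99th percentile of level, among them Fos, Fosb, Jun, Egr1 and Dusp1, had a median pooled SD of 0.06, and the other 25 of 0.18. The quiescent SD was larger than the reverted SD in 27 of 35 members, against 58.2% of all genes, with medians of 0.17 and 0.08. Leaving out quiescent array 3, it was larger in 23 members with a median of 0.13.

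**Figure D4:**
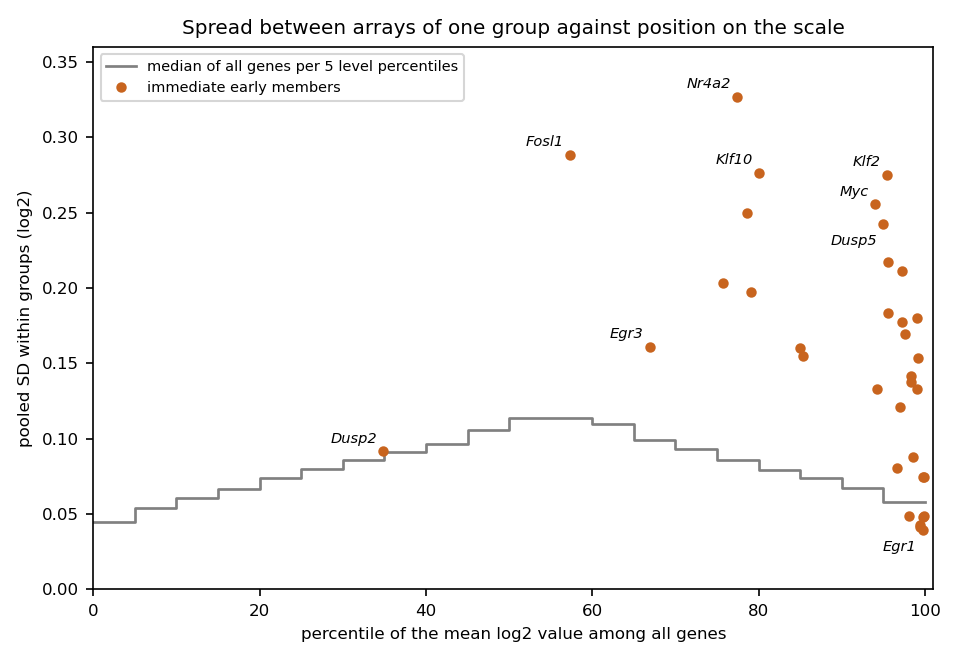
Pooled SD within groups (vertical axis, log2 units) against the percentile of the mean log2 value among all 19938 genes (horizontal axis) for the 35 members (points), with the median of all genes per 5 level percentiles (grey line). Most members lie above the line. Near the 100th percentile Egr1, Fos, Zfp36, Jun and Dusp1 lie below it, and Fosb and Nr4a1 (0.07 each) above it.

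Other genes of the same response were read from further lists. Of 45 other early response genes 1 rose, 0 fell and 44 did not pass, while 0.527% of all genes rose and 0.186% fell. The mean was higher in reverted cells in 34 (75.6%), against 46.4% of all genes and 63.8% of the upper 25% by level. The median log2 change was 0.13, against -0.01 and 0.03. At an unadjusted p under 0.05 in limma 9 (20%) were higher, against 8.56% of all genes, and 0 lower. The groups did not overlap in 5, all higher (11.1%, against 4.64% of all genes and 7.24% of the upper 25%). The riser was Ptgs2, the inducible cyclooxygenase, at 7.09, 7.18, 7.07 and 7.17 in quiescent and 7.51, 7.42, 7.68 and 7.80 in reverted cells. The groups did not overlap (log2 change 0.47, SE 0.08, adjusted p = 0.0322). The call of Ptgs2 was lost in 5 of the 8 fits that left out an array (quiescent 1, 0.102; quiescent 2, 0.0717; quiescent 3, 0.0848; reverted 3, 0.121; reverted 4, 0.0672), with the hepatocyte covariate (0.111), with the heat shock covariate (0.0536) and with the replicate block (0.0835). Rgs2, an inhibitor of Gq signalling singled out after its values were seen, read 6.61, 7.58, 6.76 and 7.50 in quiescent and 8.77, 9.97, 8.55 and 8.51 in reverted cells. The groups lay well apart, yet the change of 1.84 (SE 0.34) did not pass (adjusted p = 0.0525), and its adjusted p ran from 0.0387 to 0.146 over the alternatives. In this list too quiescent array 3 had the lowest and array 4 the highest mean level of the quiescent arrays. Quiescent array 3 was below its group mean in 39 of 45 genes and array 4 above it in 38.

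Of 28 measured kinases of the ERK, JNK and p38 cascades and their transcription factors, 1 rose and 0 fell, with a median log2 change of 0.03. Over all genes 0.527% rose and 0.186% fell. Mef2c, a MADS box factor that p38 and ERK5 activate, read 10.43, 10.22, 10.25 and 10.32 in quiescent and 10.75, 10.82, 10.81 and 10.92 in reverted cells. The groups did not overlap, and the log2 change was 0.52 (SE 0.06, adjusted p = 0.00596), and the call held in each of the 18 alternatives. Of 16 ERK feedback inhibitors 0 rose and 1 fell, with a median of -0.01. The fall was that of Dusp7, an ERK phosphatase, from 12.04 ± 0.05 to 11.80 ± 0.03 (SD, n = 4, log2 change -0.25, SE 0.04, adjusted p = 0.027). Its call was lost without each array except quiescent array 4, with adjusted p up to 0.0875, with the hepatocyte covariate (0.102), the heat shock covariate (0.0572) and the replicate block (0.115), and after median centring (0.0714). In the feedback list quiescent array 3 was below its group mean in 13 of 16 genes.

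The inducible heat shock genes, which also respond to the stress of isolation, ordered the arrays differently. Of 17 measured genes 0 rose and 0 fell in limma (1 at an unadjusted p under 0.05), with a median log2 change of -0.06. The smallest p values were those of Hspb8 (0.18, adjusted p = 0.224), Hspb1 (-0.40, adjusted p = 0.366) and Ahsa1 (-0.13, adjusted p = 0.435). The mean level of the list was highest on quiescent array 1 (12.12) and reverted array 3 (12.10) and lowest on reverted array 1 (11.74). On quiescent array 3 the mean was 12.00, between the values of the other quiescent arrays (11.95 to 12.12). Of the 17 genes 5 were highest and 6 lowest on this quiescent array, and 8 were below the group mean. Quiescent array 1 was above its group mean in 16 of the 17, and in 28 of the 35 immediate early members. With the heat shock mean as a covariate the log2 change of Gadd45g was 0.55 (adjusted p = 0.0473) and that of Myc 0.70 (adjusted p = 0.115). Stellate markers had a mean level of 13.23 on quiescent array 3, against 13.14 to 13.19 on the other quiescent arrays. The part of cell composition or handling in the order of the arrays was not tested.

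Promoter sequence from RefSeq (build GRCm38.p6) was matched for 29 of the 35 members, and Fosl1, Egr1, Egr3, Ier2, Klf10 and Myc had no entry. The 250 bases before the start site are shown for some of the members that have a single entry. Among these, Gadd45g and Klf6 are the 2 with the smallest p, and Nr4a2 and Klf2 the 2 others with the widest spread. Capitals mark matches on either strand to the motifs searched. Gadd45g lies at chr13:51846425-51846674 on the plus strand, Klf6 at chr13:5861239-5861488 on the plus strand, Nr4a2 at chr2:57124004-57124253 on the minus strand and Klf2 at chr8:72318812-72319061 on the plus strand.
Gadd45g: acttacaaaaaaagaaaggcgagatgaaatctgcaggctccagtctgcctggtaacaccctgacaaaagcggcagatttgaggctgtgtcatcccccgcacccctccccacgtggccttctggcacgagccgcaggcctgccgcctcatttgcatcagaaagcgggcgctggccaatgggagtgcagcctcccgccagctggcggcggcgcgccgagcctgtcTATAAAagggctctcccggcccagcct
Klf6: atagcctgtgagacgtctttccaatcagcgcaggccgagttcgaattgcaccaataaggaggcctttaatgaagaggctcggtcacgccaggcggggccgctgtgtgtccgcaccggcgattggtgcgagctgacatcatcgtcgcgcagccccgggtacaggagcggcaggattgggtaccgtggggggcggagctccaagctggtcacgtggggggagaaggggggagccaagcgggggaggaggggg
Nr4a2: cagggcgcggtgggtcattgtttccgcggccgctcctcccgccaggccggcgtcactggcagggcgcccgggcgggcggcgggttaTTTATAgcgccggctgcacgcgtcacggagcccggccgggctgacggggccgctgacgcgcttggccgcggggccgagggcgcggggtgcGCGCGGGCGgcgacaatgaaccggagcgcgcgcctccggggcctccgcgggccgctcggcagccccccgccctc
Klf2: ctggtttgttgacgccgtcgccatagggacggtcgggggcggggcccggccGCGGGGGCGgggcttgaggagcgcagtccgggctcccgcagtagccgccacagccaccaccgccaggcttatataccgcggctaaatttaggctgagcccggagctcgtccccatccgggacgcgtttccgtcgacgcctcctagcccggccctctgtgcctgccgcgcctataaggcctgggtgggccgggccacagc
The capitals in Gadd45g are a TATA box 27 bases before the start, Klf6 holds none of the motifs, Nr4a2 holds an EGR site and a TATA box on the opposite strand, and Klf2 holds an EGR site.

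Windows of 300 bases (250 before to 50 after the start) were searched on both strands for 5 motifs, which were allowed to overlap. The EGR site (GCGNGGGCG) was found in 12 of the 29 members (41.4%), against 6.27% of all 27025 genes with an entry. Among the 12 were Fosb, Fosl2, Nr4a1, Nr4a2, Klf2, Klf4, Socs3 and Gadd45b. The SRF-binding CArG box was found in Dusp5, Egr2 and Zfp36 (10.3%, against 1.81% of all genes), with 2 matches in Dusp5. The cAMP response element (TGACGTCA) was found in Btg2, Dusp1 and Maff (10.3%, against 2.03%), the AP-1 site (TGANTCA) in Csrnp1 and Zfp36l1 (6.90%, against 8.97%) and the TATA box (TATAAA) in 6 members (20.7%, against 15.7%). The member windows had a median GC content of 63.3%, against 52.7% over all windows, and a GC-rich motif is met more often in GC-rich sequence. These matches describe the letters of the windows only.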

How the data were processed

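The values analysed are log2 values that the authors deposited after RMA (background correction, normalization across arrays, summary per probe set), as the submitters' processing notes name it. For RMA settings and genome build nothing was given in the sources used here. In all, the deposited table holds 35556 probe sets on 8 arrays, matched by column name to 4 quiescent and 4 reverted samples, with 0 columns without a sample. Symbols came from the platform annotation: 21789 probe sets carry 1 symbol, 1621 several (not used) and 12146 none. For genes with several probe sets that with the highest mean was kept, giving 19938 genes, without a filter on dim genes. The test between groups was lmFit with eBayes in limma 3.58.1 (R 4.3.3), 2-sided and without covariates, with Benjamini-Hochberg adjustment over all 19938 genes and a threshold of 0.05. The fit was checked on simulated data. Tables and plots used Python 3.11.15, pandas 2.3.3 and matplotlib 3.10.9. Every member is given a value, and single arrays are printed for the 10 members with the smallest p and the 8 with the largest pooled SD within groups. From other lists the genes called, or the list's counts, are given. The number of arrays limits the precision. The members and lists were chosen with earlier results of these data known.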

Additional observations from a re-analysis of the deposited data

Results flagged for a closer look

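A single value stood apart in a group of 4 among the 70 groups of member values examined, a number below what chance gives, since about 1 in 20 groups stands apart by chance. Nr4a3 on reverted array 2 was at 12.12, while the other 3 reverted arrays lay between 12.42 and 12.45. The gap took up 0.894 of the group's range, above Dixon's 95% critical value for 4 samples. The same array was the lowest of its group in 17 of the 35 members.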

How the results depend on the processing

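The count of members called, 0 as deposited, was 1 after quantile normalization, with a filter that drops 25% or 50% of genes, the dimmest, with an intensity trend and robust variance, and with the heat shock mean as a covariate. It was 2 with array weights and from 0 to 2 with each array left out, the 2 being without quiescent array 4. The genes called were Gadd45g, in 7 of 18 alternatives, and Myc, in 2 of 18 (adjusted p from 0.029 to 0.152 and from 0.00424 to 0.232). Of 629 alternative values of member changes 52 changed sign, in 15 members, whose largest change as deposited was 0.10. In none of these was the member called. With the hepatocyte covariate 5 members moved by 1 SD or more (Atf3 to 0.08, Dusp2 to -0.17, Dusp6 to 0.01, Klf6 to 0.46 and Myc to 0.96). The count of all genes called, 142, was 306 with array weights, 39 with the hepatocyte covariate and from 54 to 247 with each array left out. After centring each array on its median it was 117 rises and 21 falls, against 105 and 37. The deviations of same-numbered samples correlated between -0.15 and 0.08, and those of differently numbered samples between -0.24 and 0.33. Whether same-numbered samples share more than a number cannot be told from these values. With the replicate block 63 genes and 0 members were called. Leaving out arrays gave 0 to 2 calls among the other early response genes, 0 to 1 among the ERK feedback inhibitors and 0 to 1 among the heat shock genes. The causes of these shifts were not tested.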
